A study of Sus scrofa with 8 samples.

Results

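The immediate-early response transcription factors were followed in cultured islets of neonatal pigs. A list of 10 genes was taken: FOS, FOSB, JUN, JUNB, JUND, EGR1, ATF3, IER3, IER5 and MYC. The genes were listed with earlier results of these data known. A probe set is a small group of oligonucleotide probes for the same transcript that yields a single intensity. It was counted for a gene when its only symbol in the array's annotation was that gene's symbol. No measured value entered this choice of probe sets. The rule found 11 probe sets for 7 of the 10 genes, among 24123 probe sets on the array and 6765 genes named by a single symbol. FOS, JUN, MYC, ATF3 and IER3 were read by 1 probe set each, and EGR1 and IER5 by 3 each. FOSB, JUNB and JUND had none under this rule and are not described.

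Immediate-early genes are transcribed within minutes of a stimulus, without the need for new protein. In the usual scheme, growth factors, calcium, cyclic AMP or stress activate kinases, and these modify the factors SRF, the ternary complex factors and CREB already bound at the genes. FOS and JUN proteins pair as AP-1, EGR1 is a zinc finger activator, ATF3 is a stress-induced factor that often represses, and MYC drives growth genes together with its partner MAX. IER3 and IER5 are early-response genes that act in cell survival and stress responses rather than as classical DNA-binding factors. In islet beta cells, glucose and cyclic AMP are known inducers of FOS, JUN and EGR1, and the transcripts are also known to respond to tissue handling and to fresh medium.

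Islets of 4 pigs labelled 7-day-old and of 4 pigs labelled 3-day-old were each hybridised to 1 Affymetrix porcine GeneChip, with no pooling. All pigs were male Duroc and Large White crosses, and all islets came from collagenase-digested pancreas and were cultured for 7 days. The medium of both groups held isobutylmethylxanthine, an inhibitor of phosphodiesterases that raises cyclic AMP, together with glucose, nicotinamide and albumin. The islets were whole and unsorted, and the medium was changed every few days, the last time on the day of collection. The sources used here do not give the time from that change to RNA extraction, a limit for transcripts that respond within minutes. In such bulk samples, fewer cells of a type and less RNA per cell cannot be told apart.

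The deposited values are linear intensities in arbitrary units. Each array had been scaled to the same trimmed mean of 500, and array medians lay between 172 and 178. Values below 1 were set to 1, and 21574 probe sets that reached the 20th percentile of the array (26.4 to 31.3) in at least 1 array were tested. The islet hormones INS and GCG averaged 23694 and 26221 in arrays labelled 7-day-old, against 24649 and 29346 in arrays labelled 3-day-old, and all 13 islet endocrine markers tested reached the 20th percentile in every array. The age in the deposited labels names each array. For every probe set that the study lists with a direction and that was tested here, the difference between the labels has the opposite sign, and which of the labels or the lists is exchanged is not settled by the sources used here. All directions below follow the labels.

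By limma, with Benjamini-Hochberg adjustment over all 21574 tested probe sets, 3 of the 11 member probe sets passed an adjusted p of 0.05, against 10.7% of all tested probe sets. EGR1 (the second of its probe sets by brightness) and ATF3 were lower in arrays labelled 7-day-old, a direction in which 5.47% of tested probe sets were called. The only call in the other direction, in which 5.21% were called, was the dimmest IER5 probe set. It reached the 20th percentile in 2 arrays labelled 7-day-old and in none labelled 3-day-old, so it entered the test through the label in which it was high and gives no measured difference. At an unadjusted p under 0.05 there were 6 member probe sets, against 6017 of all 21574 tested. The values of the labels did not overlap in 4 of the 11, against 21.2% of tested probe sets. Of these 4, EGR1 probe set 2, ATF3 and IER3 were lower in arrays labelled 7-day-old (10.3% of tested probe sets) and IER5 probe set 3 was higher (10.9%). The log2 differences, 7-day-old minus 3-day-old, were negative in 8 and positive in 3, with a median of -0.18 against -0.00078 over all tested probe sets. When each gene was represented by its brightest probe set, 1 of 7 genes passed (ATF3), against 12.2% of 6545 genes.

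**Figure D1:**
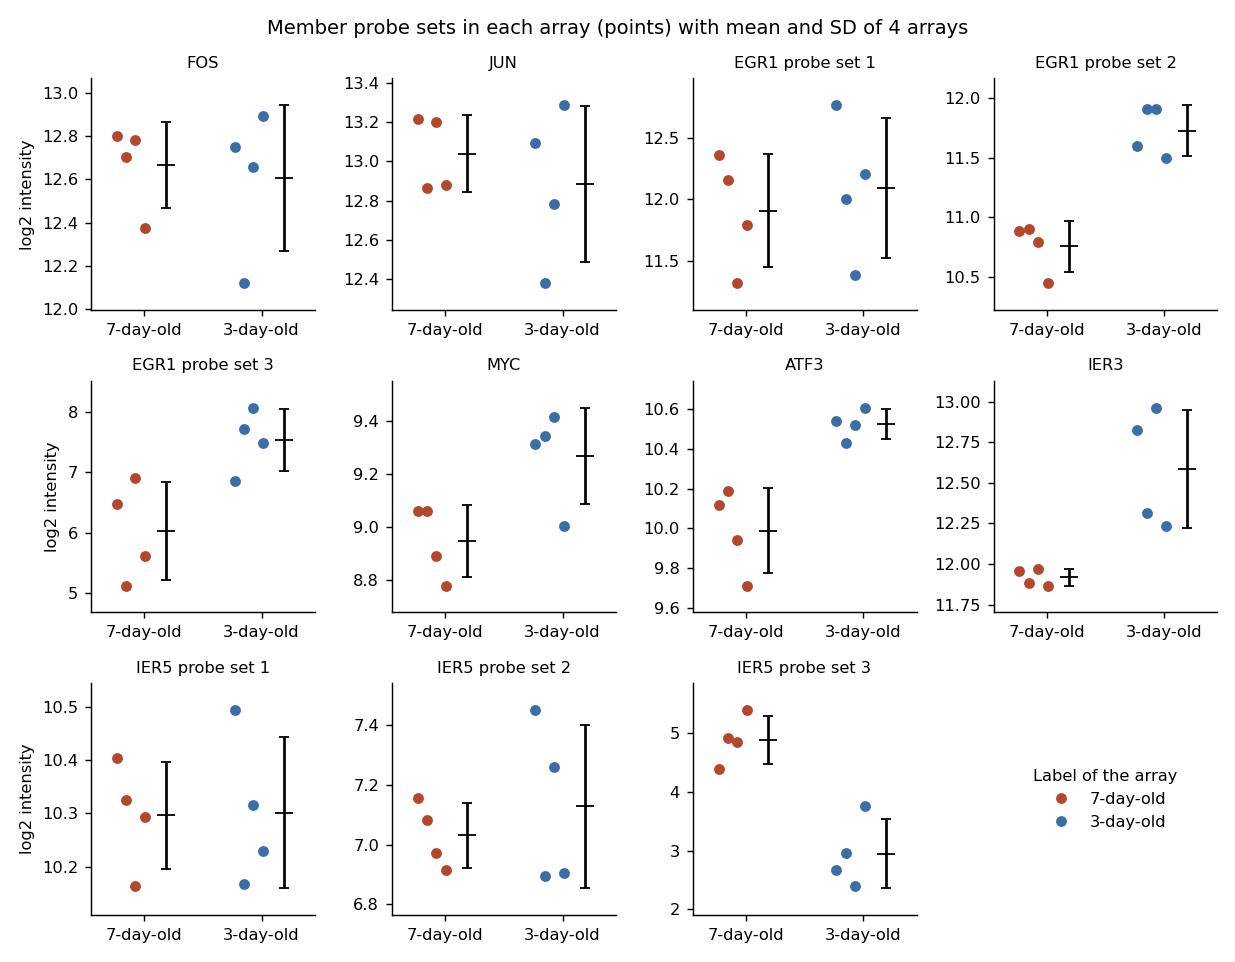
The log2 intensity (vertical axis, its own scale in each panel) of the 11 member probe sets in each array, by deposited label, with points for arrays and a bar for the mean and SD of 4 arrays. The labels are apart in EGR1 probe set 2, ATF3, IER3 and IER5 probe set 3, and overlap in the other panels.

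FOS and JUN, the components of AP-1, were among the bright transcripts of these islets and did not pass the test. FOS had intensities of 7151, 6677, 7055 and 5304 in islets labelled 7-day-old, against 6895, 4445, 6468 and 7618 in islets labelled 3-day-old. The lowest and the highest FOS values both belonged to arrays labelled 3-day-old, and those arrays spanned all the others. The log2 difference was 0.06 ± 0.19 (SE), with a 95% interval from -0.38 to 0.50 (adjusted p = 0.868). JUN had 9527, 7448, 9411 and 7526 in islets labelled 7-day-old, against 8752, 5328, 7046 and 9993 in islets labelled 3-day-old. Its labels overlapped in the same way, with replicate 2 of the arrays labelled 3-day-old lowest for both genes and replicate 4 highest for both. The log2 difference of JUN was 0.15 ± 0.21, with an interval from -0.33 to 0.64 (adjusted p = 0.681). As folds, the intervals reached from 0.771 to 1.41 for FOS and from 0.796 to 1.55 for JUN, so a difference of these sizes cannot be told from none with 4 arrays a label. Without replicate 2 of the arrays labelled 3-day-old the log2 differences were -0.10 for FOS and -0.02 for JUN, neither past the threshold.

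EGR1, the early growth response zinc finger factor, was read by 3 probe sets that did not all pass the threshold. The brightest had 5276, 4564, 2550 and 3538 in islets labelled 7-day-old, against 6978, 4105, 2674 and 4730 in islets labelled 3-day-old. Arrays of both labels were spread over a wide range here, 2.07-fold in those labelled 7-day-old and 2.61-fold in those labelled 3-day-old. The log2 difference was -0.18 ± 0.33, with an interval from -0.96 to 0.59 (adjusted p = 0.767).

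The second EGR1 probe set fell in islets labelled 7-day-old. It had 1895, 1916, 1769.6 and 1397 there, against 3097, 3836, 3838 and 2882 in islets labelled 3-day-old. Every array labelled 7-day-old lay below every array labelled 3-day-old. The log2 difference was -0.97 ± 0.15 with an interval from -1.32 to -0.62, a level 0.511 of that in arrays labelled 3-day-old (adjusted p = 0.0106). The call held without each array in turn, with adjusted p from 0.0152 to 0.0338.

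The dimmest EGR1 probe set had 89.2, 34.9, 119.9 and 48.8 in islets labelled 7-day-old, against 115.3, 210.4, 267.9 and 178.5 in islets labelled 3-day-old. The labels overlapped by 1 array, since replicate 3 of those labelled 7-day-old lay just above replicate 1 of those labelled 3-day-old. The log2 difference of -1.50 ± 0.43 had an interval from -2.50 to -0.50 and did not pass (adjusted p = 0.0669). Without replicate 3 of the arrays labelled 7-day-old it did (adjusted p = 0.0457).

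EGR1 was thus called by 1 of the 3 probe sets that carry its symbol. Whether the 3 read the same transcript was not tested. The difference between the labels was more negative by 0.78 on the log2 scale in the second than in the brightest probe set, and an exact permutation test of this gap over the 70 splits of the arrays, two-sided, gave p = 0.143. The gap between the dimmest and the brightest was -1.31 (exact p = 0.171). The smallest p that 70 splits allow in this exact test is 0.0286. These gaps were compared after the values had been seen, in a family of 6 pairs of probe sets of EGR1 and IER5, and the exact permutation p was 0.257 for both after Benjamini-Hochberg adjustment. Which parts of the EGR1 transcript the probe sets cover is not given in the files, and the log2 scale of intensities does not compare levels between probe sets.

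ATF3, the stress-induced member of the ATF and CREB family, fell in islets labelled 7-day-old. It had 1112, 1165, 982 and 839 there, against 1491, 1377, 1467 and 1559.7 in islets labelled 3-day-old. The labels did not overlap, and the arrays labelled 3-day-old lay within a 1.13-fold range. The log2 difference was -0.53 ± 0.12, with an interval from -0.81 to -0.26 (adjusted p = 0.0328), a level 0.690 of that in arrays labelled 3-day-old. The call rested on having all 8 arrays. When single arrays were left out it remained only without replicate 2 of the arrays labelled 7-day-old (adjusted p = 0.0468), and in the other 7 cases the adjusted p lay between 0.0508 and 0.0778.

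IER3, an early-response gene known for modulating apoptosis and NF-kappaB signalling, had 3969, 3770.0, 4004 and 3733 in islets labelled 7-day-old, against 7244, 5093, 7984 and 4823 in islets labelled 3-day-old. The labels did not overlap, yet they differed in spread. The arrays labelled 7-day-old lay within a 1.07-fold range, while those labelled 3-day-old covered 1.66-fold, with replicates 1 and 3 high and replicates 2 and 4 low. The log2 difference of -0.67 ± 0.18 (interval -1.08 to -0.26) just missed the threshold (adjusted p = 0.0524). It passed in 6 of 17 alternative settings, among them an intensity trend with robust variances (adjusted p = 0.00985), a stricter filter on low values (0.0144) and array quality weights (0.0407).

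**Figure D2:**
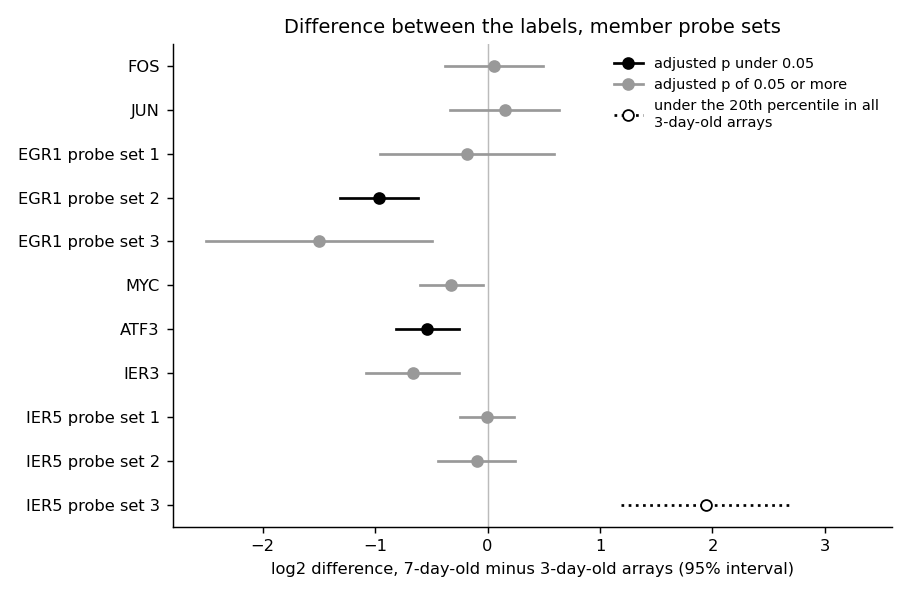
The log2 difference, 7-day-old minus 3-day-old by label (horizontal axis), for each member probe set, with its 95% interval from limma, black where the adjusted p was under 0.05. EGR1 probe set 2 (-0.97) and ATF3 (-0.53) passed, the open symbol marks IER5 probe set 3, which lay under the 20th percentile in all 4 arrays labelled 3-day-old, and probe sets are numbered from bright to dim.

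MYC, the growth regulator that acts with MAX, had 534, 534, 475 and 439 in islets labelled 7-day-old, against 637, 649.9, 682 and 513 in islets labelled 3-day-old. Only replicate 4 of the arrays labelled 3-day-old reached into the range of the other label. The log2 difference was -0.32 ± 0.12 with an interval from -0.60 to -0.04 (adjusted p = 0.135), so MYC did not pass after adjustment in this comparison, nor in any of the 17 alternative settings.

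IER5, an early-response gene with a part in the heat shock response, was also read by probe sets that did not all pass the threshold. Its brightest probe set had 1356, 1283, 1146 and 1255 in islets labelled 7-day-old, against 1442, 1150.1, 1274 and 1200.3 in islets labelled 3-day-old. The values interleaved, and the log2 difference was -0.00 ± 0.10 with an interval from -0.24 to 0.23 (adjusted p = 0.983). The second probe set had 143, 136, 126 and 121 in islets labelled 7-day-old, against 175, 119, 153 and 119.9 in islets labelled 3-day-old. It overlapped too, with a log2 difference of -0.10 (interval -0.44 to 0.25, adjusted p = 0.719).

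The dimmest IER5 probe set had 20.9, 30.2, 28.9 and 42.0 in islets labelled 7-day-old, against 6.34, 7.80, 5.28 and 13.5 in islets labelled 3-day-old. The arrays labelled 7-day-old were all higher (adjusted p = 0.0138), but these intensities sit at the bottom of the array. As the probe set never reached the 20th percentile in arrays labelled 3-day-old, that level can serve as its bound there, and the mean in arrays labelled 7-day-old was 0.975 of it. No fold is therefore given, and the higher values are not read as a difference of IER5. The deposited table has no detection call.

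Beyond the labels, the bright members varied much from array to array, each array being of another pig. The median SD of log2 values within a label was 0.259 over the 11 member probe sets, against 0.247 over all tested probe sets. Most members are bright, and the 5956 tested probe sets at or above the mean 75th percentile had a median of 0.133. Among those, the brightest EGR1 probe set (SD 0.519) stood at percentile 99.0, JUN (0.313) at 95.0, FOS (0.279) at 92.5 and IER3 (0.259) at 90.1. ATF3 (0.159, percentile 64.7) and the brightest IER5 probe set (0.123, percentile 43.4) were nearer to the middle. These are descriptions, and the members share each array and each pig.

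In some arrays the deviations of the brightest probe sets lay on the same side. For the brightest probe set of each of the 7 genes, all 7 lay above the mean of their own label in replicate 1 of the arrays labelled 7-day-old (median 0.13 on the log2 scale), and all 7 lay above it in replicate 1 of those labelled 3-day-old (0.19). In replicate 4 of the arrays labelled 7-day-old all 7 lay below it (median -0.16). In replicate 2 of those labelled 3-day-old 6 of the 7 did (-0.13), with FOS at -0.49 and JUN at -0.51. The remaining 4 arrays had genes on both sides. The dimmer probe sets did not all follow. In replicate 1 of the arrays labelled 3-day-old, EGR1 probe sets 2 and 3 stood at -0.13 and -0.68. IER5 probe set 3 stood at -0.28 there and IER5 probe set 2 at 0.32. The same count was not made over other tested probe sets, so these counts have no background beside them. ATF3 kept all its deviations within -0.28 to 0.20. The order of EGR1 in its brightest probe set differed from that of FOS and JUN, since replicate 3 was the lowest array of each label there (-0.59 and -0.71).

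**Figure D3:**
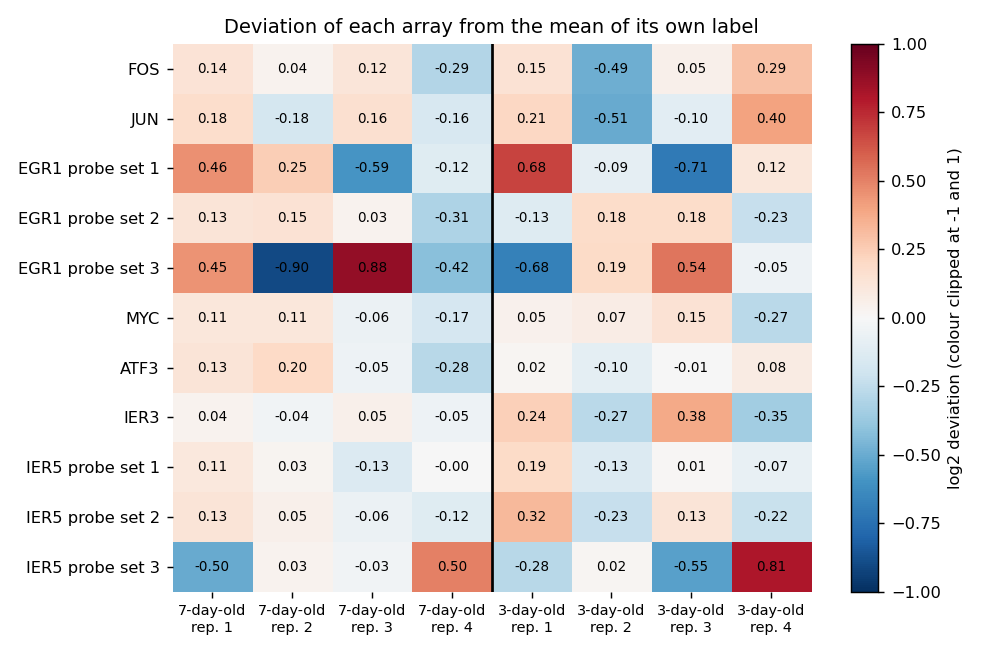
The deviation of each array from the mean of its own label, in log2 units, for the 11 member probe sets (rows) and 8 arrays (columns, labelled 7-day-old on the left), with the colour clipped at -1 and 1. FOS and JUN are lowest in replicate 2 of the arrays labelled 3-day-old (-0.49 and -0.51) and highest in replicate 4 of that label (0.29 and 0.40).

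The wider early-response programme was described by counts, at 1 probe set per gene (the brightest), beside the 5.03% of 6545 genes called higher and 7.15% called lower in arrays labelled 7-day-old. The median log2 difference over all these genes was -0.02. Of 24 other immediate-early transcription factors listed, 17 were tested, and 8 of them fell and none rose, with a median of -0.57. ID1, ID2 and ID3, inhibitors of basic helix-loop-helix factors, were among them. ID2 had 69.0, 46.7, 96.9 and 58.6 in islets labelled 7-day-old, against 229, 182, 147 and 163 in islets labelled 3-day-old (log2 difference -1.45, adjusted p = 0.0135). ID3 averaged 602 in islets labelled 7-day-old, against 1256 in islets labelled 3-day-old, and ID1 averaged 859 against 1709.

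The others that fell were KLF9, a Krüppel-like factor induced by hormones (-0.92), the C/EBP factors CEBPB (-0.83) and CEBPD (-0.60), the circadian repressor BHLHE40 (-0.74), and FOSL1, a FOS relative that pairs with JUN (-0.97). FOSL1 was called in 1 of its 3 probe sets and another had a log2 difference of 0.55. KLF9 was called in 1 of its 2, and the other had 0.11. FOSL2 (-0.57), the orphan nuclear receptor NR4A2 (-0.56) and KLF4 (-0.55) did not pass, and KLF10 (0.03) and HES1 (-0.00) lay near 0. EGR4 (0.31) and KLF2 (0.27), the highest of the list, did not pass either. Without each array in turn, 5 to 7 of the 17 were called lower, with 5 without replicate 2 or without replicate 3 of the arrays labelled 3-day-old.

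Other early-response genes and feedback regulators numbered 18 tested of 34 listed, with 4 lower, none higher and a median of -0.31. Only 2 were lower without replicate 2 of the arrays labelled 7-day-old or without replicate 2 of those labelled 3-day-old. CYR61, a secreted matrix-associated protein, had 1184, 1428, 1279.8 and 1159.7 in islets labelled 7-day-old, against 2931, 2633, 2896 and 2391 in islets labelled 3-day-old. The labels stood well apart for CYR61 (log2 difference -1.10, adjusted p = 0.0044), which held without each array in turn. IER2, a nuclear early-response protein (-0.63), NFKBIA, the inhibitor of NF-kappaB (-0.68), and DUSP6, a phosphatase that switches off ERK (-0.80), fell as well. DUSP6 was called in 1 of the 8 cases in which single arrays were left out and NFKBIA in 6. DUSP1, a phosphatase of the same family and a classical immediate-early gene, had 0.06 and BTG1, an antiproliferative gene, had -0.02.

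None of the 14 upstream kinases and activators tested (of 33 listed) passed, in either direction, and their median was 0.05. EGFR, a growth factor receptor, averaged 1879 in islets labelled 7-day-old, against 2483 in islets labelled 3-day-old (-0.42, adjusted p = 0.202). MEF2D, an activator of JUN transcription, averaged 1054 in islets labelled 7-day-old, against 832 in islets labelled 3-day-old (0.33, adjusted p = 0.086). Among the other basic leucine zipper factors 0 of 5 tested passed. DDIT3, the CHOP factor of endoplasmic reticulum stress, had a log2 difference of 0.46 (adjusted p = 0.0872). ATF5, a stress-response relative of ATF4, reached the 20th percentile in 2 arrays labelled 7-day-old and in none labelled 3-day-old. It thus entered the test through the label in which it was high, and its 1.02 (adjusted p = 0.069) gives no measured difference. Of the MYC network 0 of 3 passed, and the MAX partner MXI1, a MYC antagonist, had -0.45 (adjusted p = 0.0659).

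Genes known in other systems as targets of these factors were counted in the same way. Of 12 AP-1 targets tested, 5 fell and none rose, with a median of -0.97. Without each array in turn 3 to 6 were lower, with 3 when replicate 1, 2 or 3 of the arrays labelled 3-day-old was left out. The matrix proteases MMP1 and MMP3 were among them. MMP1 had 1608, 871, 566 and 1993 in islets labelled 7-day-old, against 7742, 8233, 9760.1 and 6466 in islets labelled 3-day-old (-2.83, adjusted p = 0.00787). PTGS2, the inducible cyclooxygenase, had -3.15 (adjusted p = 0.0061) and MMP3 had -3.19 (adjusted p = 0.0243, called in 4 of the 8 cases without 1 array). The chemokine CXCL8 (-1.16) and the protease inhibitor TIMP1 (-0.80) fell too. The study itself singled out MMP1, MMP3, PTGS2 and CXCL8 on these samples, and TGFB1 and ICAM1 among the targets of EGR1, so their counts are not independent evidence of a direction.

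Of 4 EGR1 targets tested, 3 fell and none rose (2 or 3 without each array in turn), with a median of -0.90. They were the growth factor TGFB1 (-1.24), the adhesion molecule ICAM1 (-1.16, with 828, 721, 791 and 846 in islets labelled 7-day-old against 2242, 1777, 1683 and 1488 in islets labelled 3-day-old) and F3, the initiator of coagulation (-0.63, called in 2 of the 8 cases without 1 array). Of 9 MYC targets, ODC1, an enzyme of polyamine synthesis, fell (-0.44, adjusted p = 0.0173, called in 4 of those 8 cases), none rose and the median was -0.15. None of these lists shows which factor acted on its genes.

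**Figure D4:**
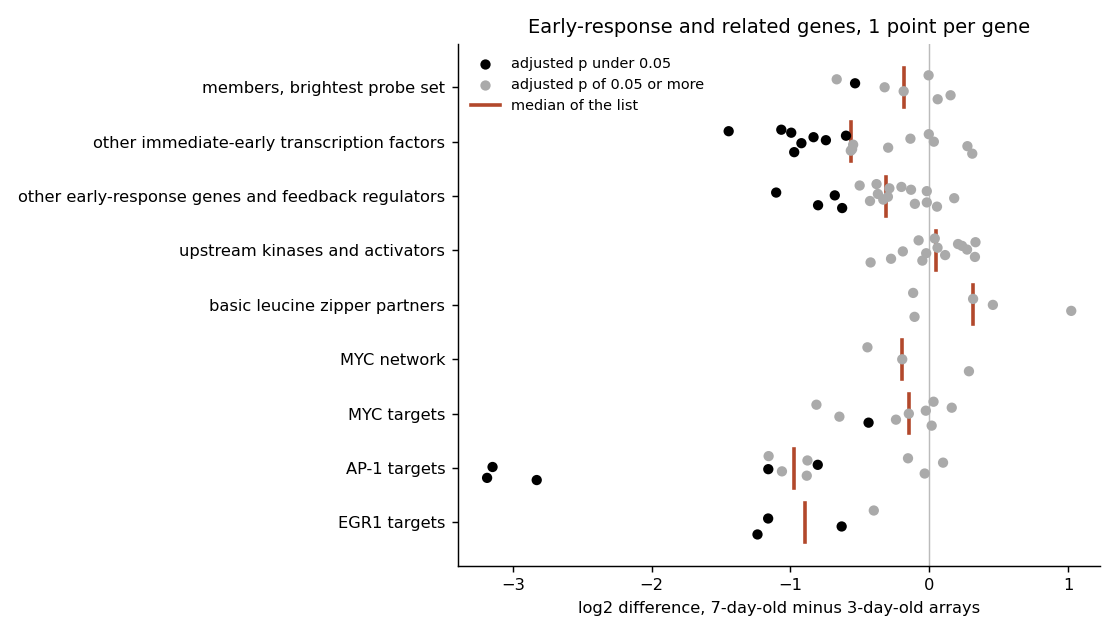
The log2 difference, 7-day-old minus 3-day-old by label (horizontal axis), of each tested gene at its brightest probe set, by gene list, black where the adjusted p over all tested probe sets was under 0.05, with the median of each list as a bar. The early-response lists lie mostly at or below 0 (medians -0.57 and -0.31) and the upstream kinases and activators around 0.05.

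Markers of other cell types moved with the labels, and their part in the differences of the early-response genes and targets was not tested. Of 9 endothelial markers tested, 4 were lower in arrays labelled 7-day-old and none was higher. TIE1, 1 of these 4, lay under the 20th percentile in every array labelled 7-day-old. It entered the test through the label in which it was high and gives no measured difference. The summed intensity of the 9 markers was 679.5 to 874.5 in arrays labelled 7-day-old, against 1720 to 2187 in arrays labelled 3-day-old. Of 10 fibroblast and stellate markers 4 were lower and none higher, with sums of 26983 to 31698 against 36902 to 51638. Of 6 pericyte and smooth muscle markers 3 were lower and none higher, with sums of 1905 to 2323 against 3145 to 4153. In each of these lists the sums did not overlap between the labels. Sums of linear intensities rest mainly on the brightest genes of a list. In the fibroblast and stellate list these were VIM and FN1. VIM averaged 15200 in arrays labelled 7-day-old against 20516 in those labelled 3-day-old, and FN1 averaged 7993 against 12378. Neither passed the limma test (adjusted p = 0.0637 and 0.103). Without each array in turn, 2 to 5 fibroblast and stellate markers were lower, with 2 in every case but that without replicate 1 of the arrays labelled 3-day-old. The endothelial count was 2 to 4, lowest without replicate 2 of the arrays labelled 7-day-old, and the pericyte and smooth muscle count stayed at 3.

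Duct markers were lower in 2 of 9 and higher in none (56705 to 60462 in arrays labelled 7-day-old, against 62589 to 69266 in arrays labelled 3-day-old). Islet endocrine markers were higher in 6 of 13 and lower in none (171439 to 210649 against 147113 to 183216), with overlapping sums. Acinar markers were lower in 1 of 7 (28032 to 43976 against 33104 to 38133) and leukocyte markers in 1 of 11 (615 to 696 against 604 to 1334). That leukocyte marker was TYROBP, which reached the 20th percentile in 5 of the 8 arrays. It had 10.0 to 53.0 in arrays labelled 7-day-old, against 64.6 to 155.6 in arrays labelled 3-day-old. The leukocyte marker ITGB2 went the other way (0.54) and did not pass the limma test (adjusted p = 0.0512). The 20th percentile was reached in all 8 arrays by 5 of 9 endothelial, 4 of 11 leukocyte, 4 of 6 pericyte and smooth muscle and 6 of 7 acinar markers, and by every marker tested of the islet endocrine, duct and fibroblast lists. The general leukocyte marker PTPRC and the T cell markers CD2 and CD4 reached it in 1 array each. Among the called markers, the study lists PECAM1, CDH5, DCN, RGS5, CPB1, PCSK2 and NEUROD1 as well, so these are not independent of it.

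RNA integrity as read by control probe sets did not separate the labels. The log2 ratio of 3′ to 5′ probe sets was 0.717 to 1.23 for GAPDH in arrays labelled 7-day-old, against 1.06 to 1.25 in arrays labelled 3-day-old, and 1.25 to 1.49 against 1.13 to 1.42 for beta-actin. In a second GAPDH pair it was 0.343 to 1.60 against 1.23 to 1.57. The ranges of the labels overlapped in all 5 control pairs.

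The dimmest EGR1 probe set had the largest SD over the 8 arrays among the members above the 20th percentile throughout (1.02 on the log2 scale). Probe sets of other genes were ordered by the root mean square difference of centred log2 values from it over the 8 arrays. The nearest were LOXL4, a lysyl oxidase (0.404), OAZ1, an inhibitor of polyamine synthesis (0.417), and the collagen COL5A1 (0.437). The transcription factor STAT5A (0.454) and the cytokine IL1A (0.454) followed. The median was 0.979 over tested probe sets of other genes with 1 symbol. The nearest genes are the smallest of these distances, so they lie below it by selection. OAZ1 had 47.2, 31.2, 43.4 and 19.9 in islets labelled 7-day-old, against 66.2, 130.2, 95.2 and 96.5 in islets labelled 3-day-old. COL5A1 had 585, 418, 675 and 531 in islets labelled 7-day-old, against 1044, 1002, 1672 and 1374 in islets labelled 3-day-old. The labels enter this measure of likeness, so no test between them is given for these genes.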

How the data were processed

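The authors hybridised RNA of 8 islet samples, 4 a label, to the Affymetrix porcine GeneChip and deposited linear intensities, 1 per probe set and array, already scaled, since every array has the same mean once its top and bottom 2% are trimmed. The sources used here do not give the summarising software. Their comparison used GeneSpring GX 11.5. RNA was amplified, with an extra round for samples with little cRNA that are not named.

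Here 1528 intensities below 1 (the range was 0.04 to 41079.3) were set to 1 and log2 values were taken. Of 23999 probe sets other than 124 controls, 21574 reached the 20th percentile in 1 or more arrays and were tested with R 4.3.3 and limma 3.58.1 (a two-sided moderated test by lmFit and eBayes, without covariates, Benjamini-Hochberg over all tested, threshold 0.05). Symbols came from the platform annotation, in which 10069 probe sets have 1 symbol, and the Entrez IDs of all 7 measured members give the same current symbol. Probe sets of EGR1 and IER5 are numbered by mean brightness. Pairs of probe sets were compared by an exact permutation test over the arrays, two-sided. Up to 3 called genes of each list with the largest differences, or up to 2 where none passed, were named with their values, and genes outside this rule were chosen after their values were seen. The members and the gene lists were chosen with earlier results of these data known. The limma fit was tested on simulated data. Python 3.11.15 with numpy 2.4.6, pandas 2.3.3, scipy 1.17.1 and matplotlib 3.10.9 served for the rest.

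The alternatives were a stricter filter (4 or more arrays at the 50th percentile), no filter, an intensity trend with robust variances, median centring, quantile normalization, array quality weights, an offset of 16 before the log, the methods' t-test, each array left out in turn, a replicate block, and, for the gene lists, averaging the probe sets of a gene. The number of arrays limits the precision. The limma p-values set the difference between the labels against the spread between pigs within a label, 4 a label, moderated over all tested probe sets.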

Additional observations from a re-analysis of the deposited data

Results flagged for a closer look

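The highest and the lowest array of each label were examined for members and named genes, in 60 groups of 4 arrays, and 2 groups had an array far from the other 3, where chance gives about 1 in 20. ATF5, a leucine zipper relative of the members, had 9.48 in replicate 4 of the arrays labelled 3-day-old, and 18.7 to 19.8 in the other 3. The gap took 0.919 of the range. ODC1, listed as a MYC target, had 4104 in replicate 4 of the arrays labelled 3-day-old and 4572 to 4674 in the other 3, a gap of 0.83 of the range. No member probe set was picked out in this way. In both cases the far array lies low, and ATF5 is there well below the 20th percentile of the array.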

How the results depend on the processing

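The sizes of the calls depended on the variance model and the number of arrays more than on scaling. With an intensity trend and robust variances, 3491 probe sets passed in place of 2305, and 5 member probe sets in place of 3. With the offset of 16, 5 member probe sets passed, against 2603 of all 21574 tested. In both, IER3 and the dimmest EGR1 probe set were added. With the replicate number as a block, 0 of the tested probe sets, 0 members and 0 genes of the early-response and target lists (21 of 82 in the fit without it) passed in limma, while 5264 probe sets, 6 members and 32 list genes had an unadjusted p under 0.05, and the methods' t-test without the block called 2125 probe sets. Replicate numbers showed no pairing (residual correlations of -0.0135 to 0.00487, and 0 of 8 arrays matched best with their own number). In the block fit adjusted p was 0.0576 for EGR1 probe set 2 and IER5 probe set 3 and 0.122 for ATF3. Without each array in turn, 1020 to 1877 probe sets, 2 or 3 members and 12 to 19 list genes passed. Signs turned only for members that were not called. Over the cases without 1 array, FOS ran from -0.10 (without 3-day-old replicate 2) to 0.16, JUN from -0.015 (without the same array) to 0.29, EGR1 probe set 1 from -0.42 to 0.042 (without 3-day-old replicate 1; 0.012 without 7-day-old replicate 3), IER5 probe set 1 from -0.049 to 0.060 and IER5 probe set 2 from -0.17 to 0.011 (both highest without 3-day-old replicate 1). IER5 probe set 1 gave 0.013 with array quality weights. The causes were not tested. The stricter filter left out EGR1 probe set 3 and IER5 probe sets 2 and 3, which have no value there. With it 3 of the 8 remaining member probe sets passed, against 3295 of all 12213 probe sets tested in that setting. The totals over all tested probe sets, members and the 82 list genes stayed within 1.5 times those reported under no filter, median centring, quantile normalization and array quality weights, and the list genes also with averaged probe sets of a gene. Single lists moved more. Duct markers had 1 lower with no filter. MYC targets had 2 lower, the MYC network 1 lower and leukocyte markers 1 higher with array quality weights. Leucine zipper partners had 1 higher with quantile normalization. That was ATF5, which lay under the 20th percentile in every array labelled 3-day-old and so gives no measured difference. Low intensities limit IER5 probe set 3 most, since it lies near or under the 20th percentile of the arrays.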
